A study of Chromochloris zofingiensis with 38 samples.

Results

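A group of 70 genes of Chromochloris zofingiensis, out of 12459 in the table (0.562%), was low 1 h and high 24 h into treatment with AZD, an inhibitor of the kinase TOR. The genes were chosen by these values themselves. For each gene, L(AZD,S) is the log2 ratio of the mean level in AZD to the mean level in the group labelled S, each as CPM (a gene's count scaled to a common library total) plus 1, less the median of that ratio over the 11623 genes with a mean CPM of at least 1. A gene was a member where L was -1 or lower at 1 h and 1 or higher at 24 h, which is at least 2-fold each way. All 70 had a mean CPM of at least 1, and all 70 passed the filter on low counts. L passed the 1 h threshold in 1456 genes (11.7%) and the 24 h threshold in 2270 genes (18.2%).

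TOR (target of rapamycin) is the kinase through which cells match growth to their nutrient supply. Active TOR favours the making of ribosomes and protein, and its inhibition turns cells towards storage and recycling. C. zofingiensis is a unicellular green alga known for its storage lipid and for the red pigment astaxanthin. Glucose is known to switch off photosynthesis in this alga, and the cells then live on the added sugar.

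RNA from wild-type cell pellets was sequenced after poly(A) selection in 38 libraries, in 10 groups of 3 or 4, with 19 libraries at each time. The study asked how TOR inhibition and glucose addition change gene expression. None received no addition, AZD the inhibitor and Glu glucose. S and GA are given by their labels, which do not spell them out or give doses. AZD at 1 h and GA at 24 h had 3 libraries each, the other groups 4. The samples' title prefix differed between the times, which cannot be told apart from the time itself, and levels at 1 h and 24 h were not tested against each other. The genes have IDs but no names or products in the files, so their roles are not given here. For the same reason the culture could not be checked against marker genes.

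Library totals ran from 12414643 to 106150532 counts. L alone uses CPM by library total. All levels printed from here on, in the text and the plots, are CPM on libraries scaled by edgeR's TMM method, which takes the typical expressed gene as unchanged. S replicate 1 and Glu replicate 4, both at 1 h, stood apart from their groups. Their log2 levels lay 0.612 and 0.551 from the rest of their group, as a root mean square over genes, against 0.168 to 0.440 for the other 36 libraries. Both touch the members. S replicate 1 was over 2-fold above the mean of the other S libraries in 14 members (4.94% of all genes), and Glu replicate 4 was over 2-fold above the other Glu libraries in 9 (5.01% of all genes). These counts share 8 members. S replicate 1 took part in the choice of the genes: without it the rule gives 59 genes, 55 of them among the 70. Of the 15 members lost, 10 were among the 14.

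The most extreme of these members was Cz01g44090. In S at 1 h its levels were 111.8 CPM in replicate 1 and 5.28, 6.11 and 6.32 CPM in the others. In Glu at 1 h they were 370.6 CPM in replicate 4 and 4.99, 7.30 and 8.51 CPM in the others. Without S replicate 1 its L(AZD,S) at 1 h was 0.43 in place of -2.005. The same 2 libraries stood far above the rest in Cz06g29140, with 158.7 CPM in S replicate 1 and 299.4 CPM in Glu replicate 4, against 9.08 to 12.7 and 14.4 to 23.0 CPM in the other libraries of these groups. In these genes the value at 1 h was carried by 1 library a group.

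The mean of AZD at 1 h was not below that of None in 5 members, chosen after their values were seen: Cz01g44090, Cz02g14080, Cz05g31250, Cz06g29140 and Cz19g10020. All 5 have S replicate 1 and Glu replicate 4 over 2-fold above their groups. Cz19g10020, for example, averaged 14.4 CPM in None, 20.3 CPM in AZD and 79.6 CPM in S at 1 h. The AZD libraries of Cz06g29140 at 1 h, at 28.3, 33.4 and 19.0 CPM, lay above every None library and above every S library except replicate 1. Without S replicate 1, L(AZD,S) at 1 h was 0.43 in Cz01g44090, -0.23 in Cz02g14080, 1.07 in Cz06g29140 and -0.10 in Cz19g10020. In Cz05g31250 it was still -0.96. Whether these genes were low under AZD at 1 h therefore depends on which control is used. In all but Cz05g31250 it depends on 1 library of S as well. At 24 h their AZD means were above both controls, as they were in all 70 members.

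**Figure D1:**
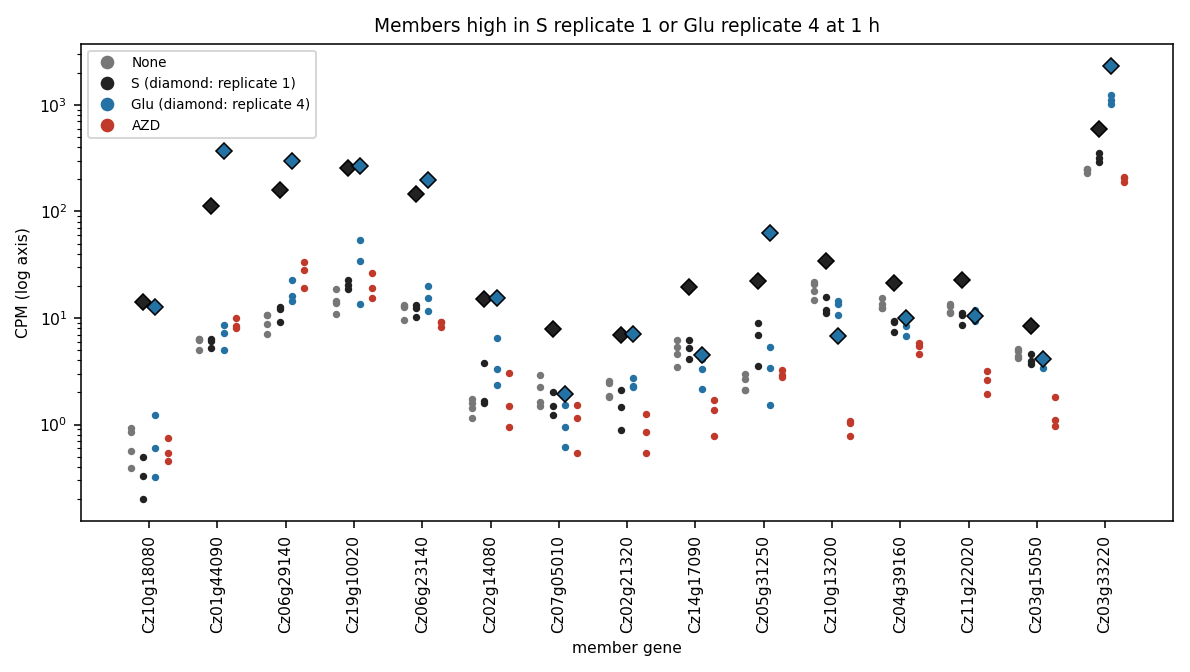
Levels at 1 h (CPM, log axis) of the 15 members in which S replicate 1 or Glu replicate 4 (diamonds) lay over 2-fold above the mean of the other libraries of its group. Dots are single libraries of None, S, Glu and AZD. In Cz01g44090 the diamonds stand at 111.8 and 370.6 CPM, while the other S and Glu libraries lie between 4.99 and 8.51 CPM.

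Under AZD the size of the early and the late difference varied among the members. L(AZD,S) at 1 h ran from -3.43 to -1.001 with a median of -1.47, and at 24 h from 1.01 to 7.04 with a median of 1.45. At 1 h 15 members were at least 4-fold lower, and at 24 h 19 were at least 4-fold higher. Only 6 were 4-fold apart at both times. Across the 70 members the early and the late L had a Spearman rho of -0.06, a description over genes that share their libraries. Both values were cut at a threshold, and S replicate 1 weighs on part of the early ones, so nothing is read from this rho. These values chose the genes and were not tested.

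By their medians the members were low at 1 h and high at 24 h against None and S, in both AZD and GA. Not every member followed the medians at 1 h. CPM is a share of a library's RNA, so less RNA of a gene per cell and fewer cells that carry it cannot be told apart. The median over the 70 members was 20.8 CPM in None, 21.2 in S, 23.8 in Glu, 7.62 in AZD and 8.41 in GA at 1 h. At 24 h it was 20.8 CPM in None, 22.0 in S, 46.7 in Glu, 69.8 in AZD and 64.8 in GA. GA thus lay near AZD at both times, and Glu lay near the controls at 1 h and between them and AZD at 24 h.

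**Figure D2:**
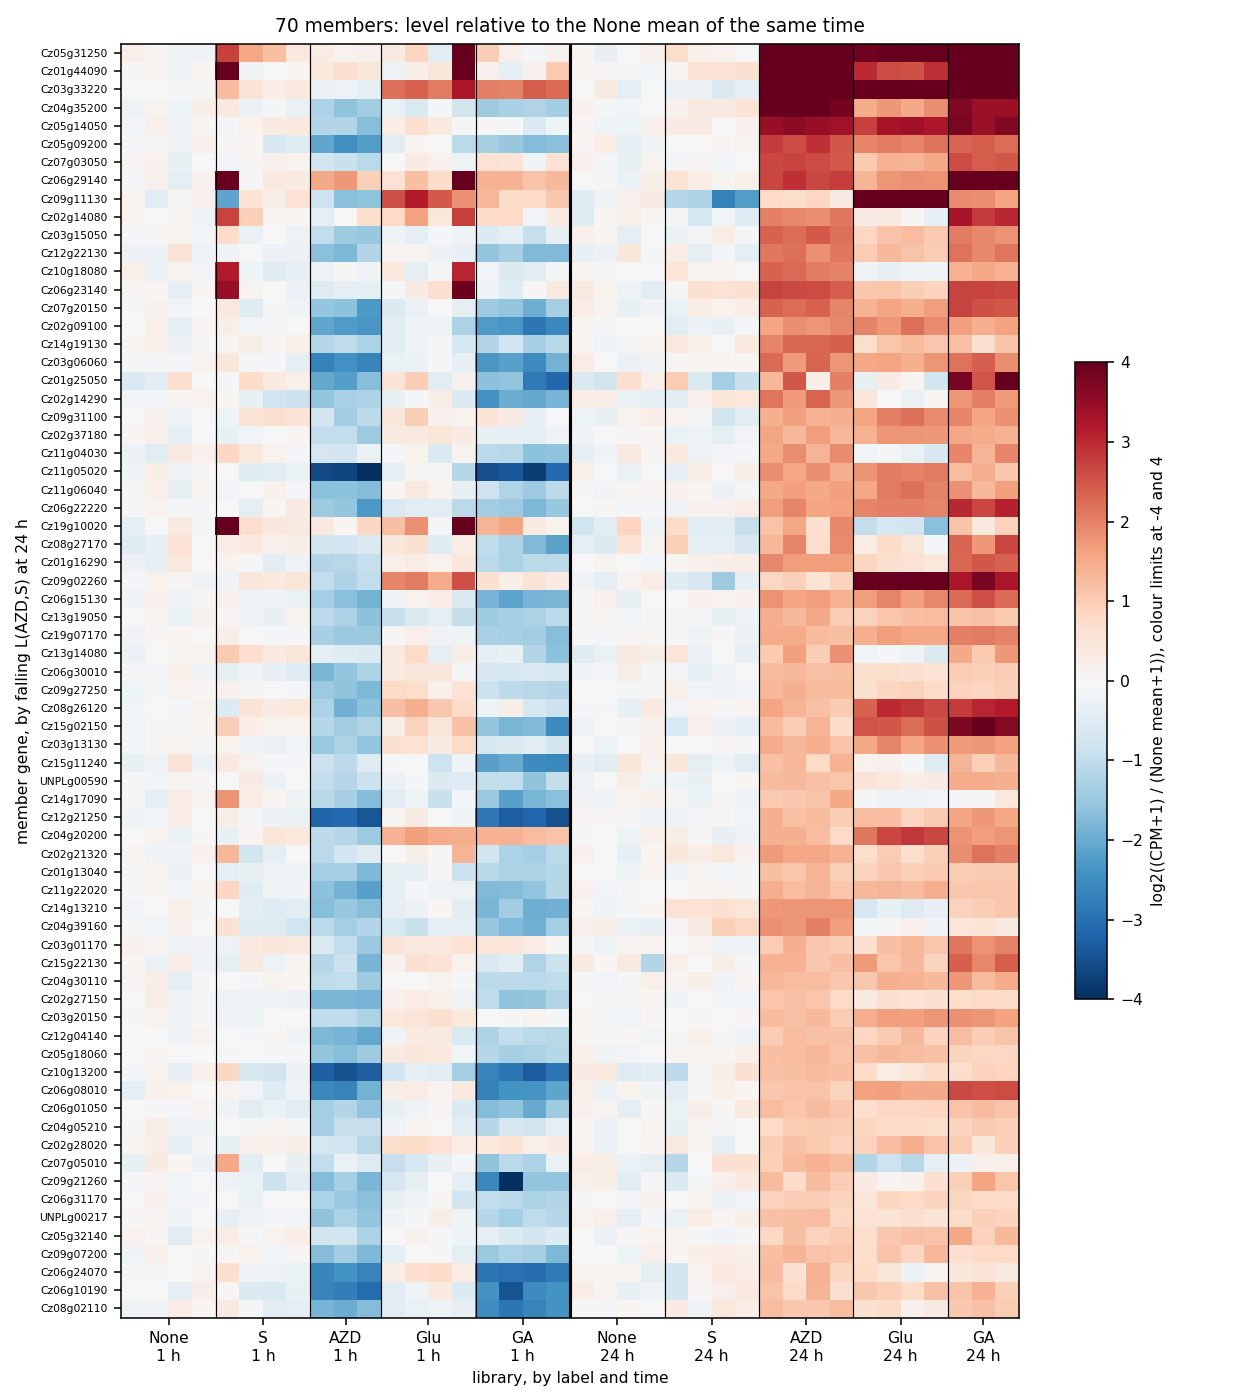
Level of each of the 70 members (rows, by falling L(AZD,S) at 24 h) in each of the 38 libraries (columns, by label and time), as log2 of CPM + 1 over the None mean of the same time. Blue is lower and red is higher than None. The AZD and GA columns at 1 h are mostly blue, the AZD, Glu and GA columns at 24 h mostly red, and S replicate 1 and Glu replicate 4 at 1 h stand out in the same few rows.

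Member by member, the group order was as follows. At 1 h the lowest of the 5 group means was that of AZD in 42 members, GA in 23 and None in 5, and AZD and GA were the lowest pair in 56. At 24 h the highest mean was that of GA in 31 members, AZD in 27 and Glu in 12, and AZD, Glu and GA all lay above None and S in 59. The lowest at 24 h was None in 38 members, S in 25 and Glu in 7. Every AZD library lay below every S library at 1 h in 62 members (23.6% of all genes tested) and above every S library at 24 h in 67 (31.3% of all genes). The rule used these libraries, so nothing is read from these counts.

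None took no part in the rule, although the AZD libraries did. With None in place of S in the same formula, the 1 h threshold was passed by 54 members (11.8% of all genes) and the 24 h threshold by 67 (18.7% of all genes), and 51 members passed both. The median L(AZD,None) was -1.44 at 1 h and 1.40 at 24 h. These values reuse the AZD libraries that chose the genes, so nothing is read from these counts either.

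The 2 members with the lowest L(AZD,S) at 1 h were Cz11g05020 and Cz10g13200. At 1 h Cz11g05020 stood at 15.9, 21.5, 16.7 and 19.0 CPM in None, at 18.0, 12.9, 13.1 and 15.0 CPM in S and at 0.573, 0.514 and 0.121 CPM in AZD. At 24 h it stood at 17.6, 15.4, 12.3 and 14.9 CPM in None, at 11.9, 18.6, 15.2 and 18.1 CPM in S and at 56.9, 45.9, 57.4 and 43.0 CPM in AZD. Every AZD library was below the controls at 1 h, down to 2.03 counts in replicate 3, and every one was above them at 24 h. Cz10g13200 stood at 18.0, 20.7, 14.8 and 21.9 CPM in None and at 1.09, 0.788 and 1.02 CPM in AZD at 1 h. At 24 h it reached 83.2, 86.2, 88.4 and 85.8 CPM in AZD, against 46.1, 48.7, 25.1 and 26.1 CPM in None and 17.2, 37.8, 43.1 and 56.5 CPM in S. Here the controls at 24 h spread widely and the AZD libraries did not.

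The 2 members with the highest L(AZD,S) at 24 h were Cz05g31250 and Cz01g44090. At 24 h Cz05g31250 stood at 974, 1295, 980 and 1240 CPM in AZD, against 6.96, 5.15, 6.69 and 7.48 CPM in None and 11.3, 7.63, 7.39 and 6.53 CPM in S. Cz01g44090 was nearly silent in None at 24 h, at 0.220, 0.189, 0.107 and 0.0748 CPM, which is 2.01 to 7.95 counts a library. In AZD at 24 h it stood at 136, 158, 172 and 135 CPM. In both genes the AZD and control libraries at 24 h were far apart, while at 1 h the AZD libraries overlapped with None or lay above it, at 3.24, 2.81 and 2.89 CPM against 2.96, 2.65, 2.11 and 2.12 CPM for Cz05g31250. At 1 h the AZD libraries of Cz01g44090, between 8.10 and 9.93 CPM, also lay above every S library except replicate 1, and those of Cz05g31250 lay below every S library.

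The 2 members with the highest mean CPM over all libraries, by counts and not per length, were Cz09g11130 and Cz03g33220. Cz09g11130 stood at 170, 215, 265 and 295 CPM in None, 107, 100, 35.7 and 48.9 CPM in S and 412, 389, 424 and 299 CPM in AZD at 24 h. Its S libraries were lower than None at that time, and its L(AZD,S) of 2.49 is larger than the gap between AZD and None. Cz03g33220 was low in the controls at 24 h, at 6.77, 8.92, 5.22 and 6.84 CPM in None, and stood at 489, 446, 437 and 212 CPM in AZD. At 1 h it stood at 248, 243, 229 and 252 CPM in None and at 208, 211 and 188 CPM in AZD. Its AZD libraries were thus within 2-fold of None at 1 h, and its L(AZD,S) at 1 h was -1.08, or -0.78 without S replicate 1.

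**Figure D3:**
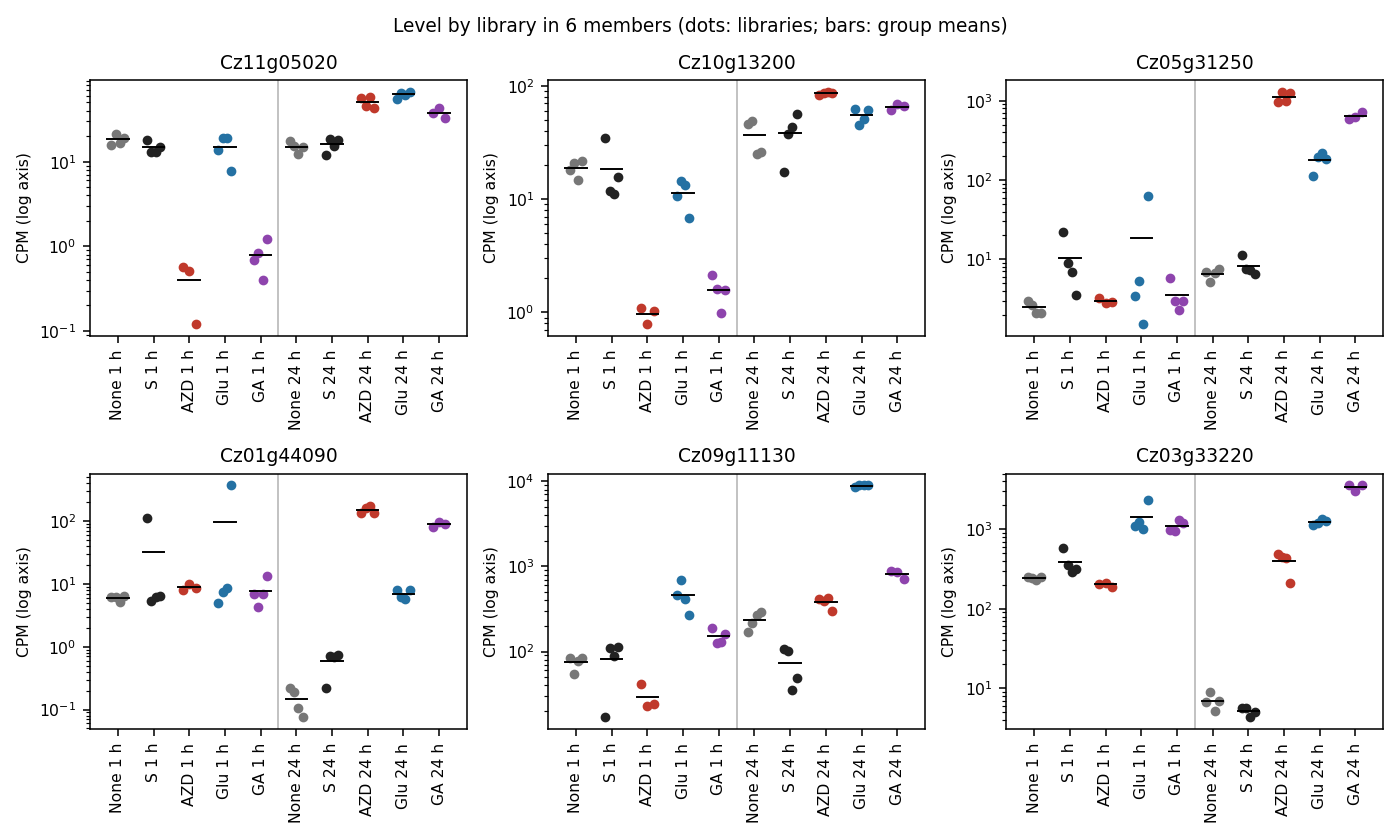
Levels (CPM, log axes) of 6 members in every library, by label and time. Dots are libraries and bars are group means. By group mean Cz11g05020 and Cz10g13200 are lowest in AZD and GA at 1 h, and Cz05g31250 and Cz01g44090 are highest in AZD at 24 h. The highest single library of Cz01g44090 is Glu replicate 4 at 1 h (370.6 CPM). Cz09g11130 is highest in Glu at 24 h (8563 to 8982 CPM) and Cz03g33220 is highest in GA at 24 h (3033 to 3574 CPM).

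The genes just inside and just outside each threshold differed little in the L of that threshold, though not always in level. Cz04g05210 was kept with an L of -1.001 at 1 h and 1.11 at 24 h, and Cz06g22190, with -0.998 and 1.02, was not. Cz08g02110 was kept with 1.008 at 24 h and -1.85 at 1 h, and Cz02g00090, with 0.995 and -2.11, was not.

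GA against Glu shares no library with the rule. G and A are the initials of glucose and AZD, but the labels do not state what GA holds. At 1 h 62 of the 70 members fell in GA relative to Glu (26.7% of all genes fell), 1 rose (31.6% of all genes rose) and 7 passed in neither direction. The test was edgeR's quasi-likelihood test, adjusted by Benjamini-Hochberg over 12142 genes, with a call at an adjusted p under 0.05. Of the 62, 51 fell at least 2-fold (1529 of all 12142 genes did). The median log2 fold change was -1.54 over the members and 0.10 over all genes tested, and the 62 called members had a median fold of 3.01. The labels do not say that replicates were separate cultures, so the p-values cover just the spread among these libraries, which may be technical. Without Glu replicate 4, 55 members fell (26.0% of all genes) and 0 rose (32.6% of all genes). All 7 of the lost falls were in members with that library over 2-fold above its group. Scaling by library totals alone moved the median of all genes from 0.10 to -0.40 and the split of all calls to 12.4% higher and 46.9% lower, with 0 members higher.

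Cz11g05020 showed the largest fall at 1 h among members whose libraries did not overlap. It stood at 13.6, 18.8, 18.8 and 7.73 CPM in Glu and at 0.692, 0.830, 0.404 and 1.23 CPM in GA, a log2 fold change of -4.18 (SE 0.28, edgeR adjusted p = 8.91e-15). Cz06g24070 followed, with 37.2, 50.0, 52.8 and 38.6 CPM in Glu and 3.21, 3.06, 2.92 and 3.56 CPM in GA (-3.80, SE 0.25, edgeR adjusted p = 9.65e-15). Every GA library lay below every Glu library in both genes, and in 52 members in all (21.6% of all genes). The single rise, in Cz07g03050, was small: 31.0, 30.0, 18.2 and 30.9 CPM in GA against 19.8, 25.6, 23.1 and 17.5 CPM in Glu (0.36, SE 0.14, edgeR adjusted p = 0.0304). Its groups overlapped.

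At 24 h the members divided. Relative to Glu, 37 of the 70 rose in GA (40.8% of all genes rose), 7 fell (35.6% of all genes fell) and 26 passed in neither direction. Of the 37, 24 rose at least 2-fold (3229 of all 12142 genes did), and the median fold over the 37 was 2.42. The median log2 fold change was 0.47 over the members and 0.11 over all genes. The count of rises is not far from the background share, while the count of falls is below it.

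The largest rises at 24 h were in Cz01g25050 and Cz10g18080. Cz01g25050 stood at 57.5, 88.7, 77.3 and 42.6 CPM in Glu and at 993, 415 and 1374 CPM in GA (log2 fold change 3.80, SE 0.53, edgeR adjusted p = 1.01e-07). Its GA libraries differed over 3-fold among themselves, and all lay above Glu. Cz10g18080 was low in both groups at 24 h, at 0.260, 0.131, 0.222 and 0.272 CPM in Glu and 2.63, 3.07 and 2.61 CPM in GA (3.69, SE 0.99, edgeR adjusted p = 0.00120). At 1 h it stood at 14.04 CPM in S replicate 1 and at 12.77 CPM in Glu replicate 4. Its L(AZD,S) at 1 h was -1.67 with S replicate 1 and 0.29 without it. The place of Cz10g18080 among the members thus rests on that library.

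The largest falls at 24 h were in Cz09g11130 and Cz09g02260, which glucose alone had raised steeply. Cz09g11130 stood at 8563, 8982, 8967 and 8975 CPM in Glu and at 875, 858 and 704 CPM in GA (log2 fold change -3.45, SE 0.43, edgeR adjusted p = 1.20e-08). Cz09g02260 stood at 948, 1537, 1343 and 1286 CPM in Glu and at 104, 148 and 104 CPM in GA (-3.43, SE 0.26, edgeR adjusted p = 8.25e-14). Both genes were nevertheless higher in GA than in every None library at 24 h, which for Cz09g02260 were 8.86, 7.42, 10.5 and 12.4 CPM.

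Taking both times, 33 of the 70 members (47.1%) fell at 1 h and rose at 24 h in GA relative to Glu, the same order of signs as in the rule. Over all genes tested 578 (4.76%) did. The count of 33 largely follows from the 2 separate counts, 62 lower at 1 h and 37 higher at 24 h, and the second was not far from its background share. Whether the 2 calls fell on the same members beyond that was not tested. Of the other 29 members that fell at 1 h, 24 passed in neither direction at 24 h and 5 fell again. Without Glu replicate 4 the count was 26, and with both that library and S replicate 1 left out it was 22 of the 59 genes the rule then gives.

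The change itself was tested as the difference at 24 h less the difference at 1 h. It was more positive at 24 h in 65 members (36.1% of all genes) and more negative in 3 (29.7% of all genes). Of the 65, 55 were more positive by at least 2-fold (3008 of all 12142 genes were). The median over the members was 2.11 on the log2 scale and 0.14 over all genes. The 3 more negative were Cz04g20200, Cz09g02260 and Cz09g11130, and the 2 that passed in neither direction were Cz02g28020 and Cz09g31100. These 5 were named after their values were seen. In Cz04g20200 the difference was -0.20 at 1 h (edgeR adjusted p = 0.274) and -0.85 at 24 h (edgeR adjusted p = 4.85e-05), and its change was -0.65 (edgeR adjusted p = 0.0153). The title prefix changes with the time, so what changed with the time changed with the prefix as well.

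**Figure D4:**
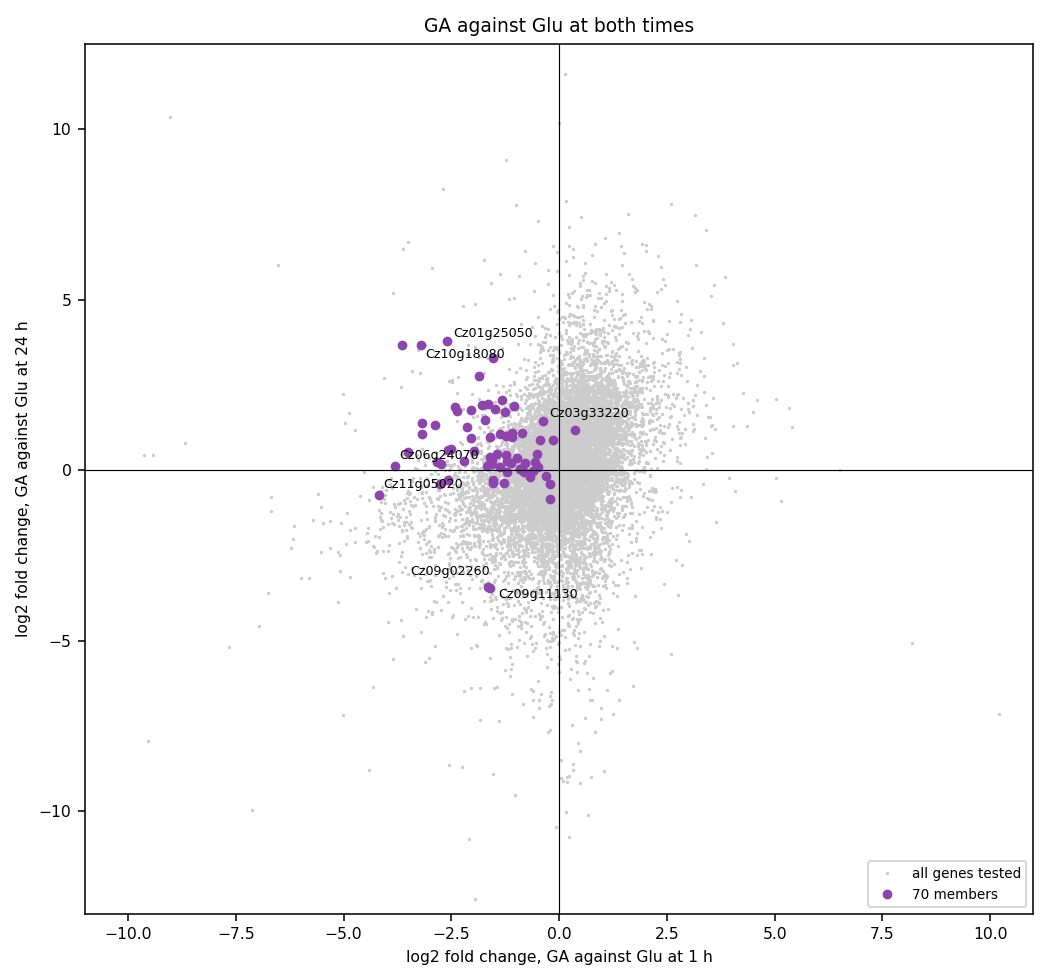
Log2 fold change of GA against Glu at 1 h (horizontal) and at 24 h (vertical), for the 70 members (purple) and all 12142 genes tested (grey). Most members lie left of 0, and above 0 more often than below. Cz09g11130 and Cz09g02260 lie lowest, at -3.45 and -3.43 on the vertical axis.

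Glu against None asks how glucose alone moved the members. It shares its Glu libraries with GA against Glu, so the results stand side by side and no overlap between them is given. At 1 h 21 members rose (17.5% of all genes rose), 6 fell (13.6% of all genes fell) and 43 passed in neither direction, with a median log2 fold change of 0.06. Without Glu replicate 4, 16 rose and 3 fell (14.8% and 10.9% of all genes), and 14 of the rises were in common. Without None replicate 4, 3 fell (12.4% of all genes), and without Glu replicate 3, 10 fell (14.7% of all genes). Scaling by library totals alone shifted the median of all genes to -0.45. Among the members it gave 11 rises (5.99% of all genes rose) and 32 falls (48.3% of all genes fell). The direction at 1 h thus depends on the scaling, over all genes as well as in the members.

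The largest rises at 1 h by the naming rule were in Cz06g29140 and Cz09g11130. Cz06g29140 stood at 14.4, 23.0, 16.1 and 299 CPM in Glu and at 8.87, 10.7, 7.11 and 10.7 CPM in None (log2 fold change 3.25, SE 0.73, edgeR adjusted p = 0.000754). Without Glu replicate 4 the change was 0.93 (edgeR adjusted p = 0.200), so this call rests on that library. Cz09g11130 stood at 456, 690, 419 and 270 CPM in Glu and 83.3, 54.9, 77.5 and 84.9 CPM in None (2.61, SE 0.37, edgeR adjusted p = 1.26e-06), with all Glu libraries above None.

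The falls at 1 h were small. Cz13g19050 stood at 20.6, 25.4, 29.9 and 19.6 CPM in Glu and 38.5, 40.5, 32.1 and 43.8 CPM in None (-0.70, SE 0.14, edgeR adjusted p = 0.000152). Cz06g22220 stood at 7.79, 8.78, 8.83 and 5.34 CPM in Glu and 11.9, 13.5, 11.8 and 11.9 CPM in None (-0.69, SE 0.17, edgeR adjusted p = 0.00164). None of the 6 falls reached 2-fold (303 of all 12142 genes fell at least 2-fold).

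At 24 h glucose raised most members. Relative to None, 53 of the 70 rose (32.8% of all genes rose), 1 fell (36.0% of all genes fell) and 16 passed in neither direction. Of the 53, 43 rose at least 2-fold (1630 of all 12142 genes did), with a median fold of 2.58 over the 53. The median log2 fold change was 1.14 over the members and -0.06 over all genes. Late rises of these genes were thus seen in libraries that the rule did not use and that held no AZD by label.

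The largest rises at 24 h were in Cz03g33220 and Cz09g02260. Cz03g33220 stood at 1116, 1195, 1355 and 1278 CPM in Glu against 5.22 to 8.92 CPM in None, a log2 fold change of 7.48 (SE 0.30, edgeR adjusted p = 2.50e-20). In Glu it was at 1114, 1246, 1022 and 2340 CPM at 1 h already, where None was at 229 to 252 CPM, so the larger ratio at 24 h came with a low None level. For Cz09g02260, whose 24 h levels are given above, the log2 fold change was 7.02 (SE 0.27, edgeR adjusted p = 1.16e-20). In AZD at 24 h the same gene stood at 18.2, 19.9, 14.9 and 18.9 CPM, far below its Glu libraries.

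The member that fell in Glu at 24 h was Cz14g13210. It stood at 21.3, 28.1, 23.7 and 27.1 CPM in Glu and 37.3, 30.9, 33.7 and 36.2 CPM in None (-0.46, SE 0.13, edgeR adjusted p = 0.00159). Its AZD libraries were at 118, 119, 119 and 120 CPM and its GA libraries at 66.6, 68.9 and 73.6 CPM. The call was lost without None replicate 1 (-0.30, edgeR adjusted p = 0.0541) or None replicate 4 (-0.30, edgeR adjusted p = 0.0517).

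GA and AZD at 24 h lay at like levels in most members, which is a description, since AZD chose the genes. The log2 difference of GA over AZD ran from -1.37 to 3.09 with a median of 0.02. It was within 2-fold in 56 members, at least 2-fold higher in GA in 10 and at least 2-fold lower in 4. The mean of GA was above that of None at 24 h in all 70, and every GA library was above every None library in 67 (36.9% of all genes). At 1 h every GA library was below every None library in 49 (28.0% of all genes). Every GA library was above every None library at 1 h in Cz03g33220, Cz04g20200, Cz06g29140, Cz09g02260 and Cz09g11130, named after their values were seen. Cz03g33220, for example, stood at 984, 954, 1306 and 1184 CPM in GA at 1 h, against 248, 243, 229 and 252 CPM in None. The share of all genes with GA above None in this way is not given, so nothing is read from the number of these members.

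The nearest gene sets by the same L values were 1386 other genes past the 1 h threshold, 2200 other genes past the 24 h threshold, and 53 genes of the mirror pattern, high at 1 h and low at 24 h. At 1 h the members resembled the other early falls in GA against Glu, with 88.6% of the members and 93.4% of that set lower. At 24 h they did not resemble them: 52.9% of the members and 3.82% of the other early falls were higher, and 7 members against 78.9% of that set were lower. Among the other late rises 88.6% were higher in GA than in Glu at 24 h and 7.41% lower at 1 h. Both calls were met by 47.1% of the members, 3.54% of the other early falls and 6.05% of the other late rises.

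In Glu against None at 24 h 75.7% of the members, 65.4% of the other early falls, 47.2% of the other late rises and 11.3% of the mirror set rose. The early falls as a set were thus often higher in Glu at 24 h too. The sets were cut from AZD and S values, and the differences between the sets were not tested.

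**Figure D5:**
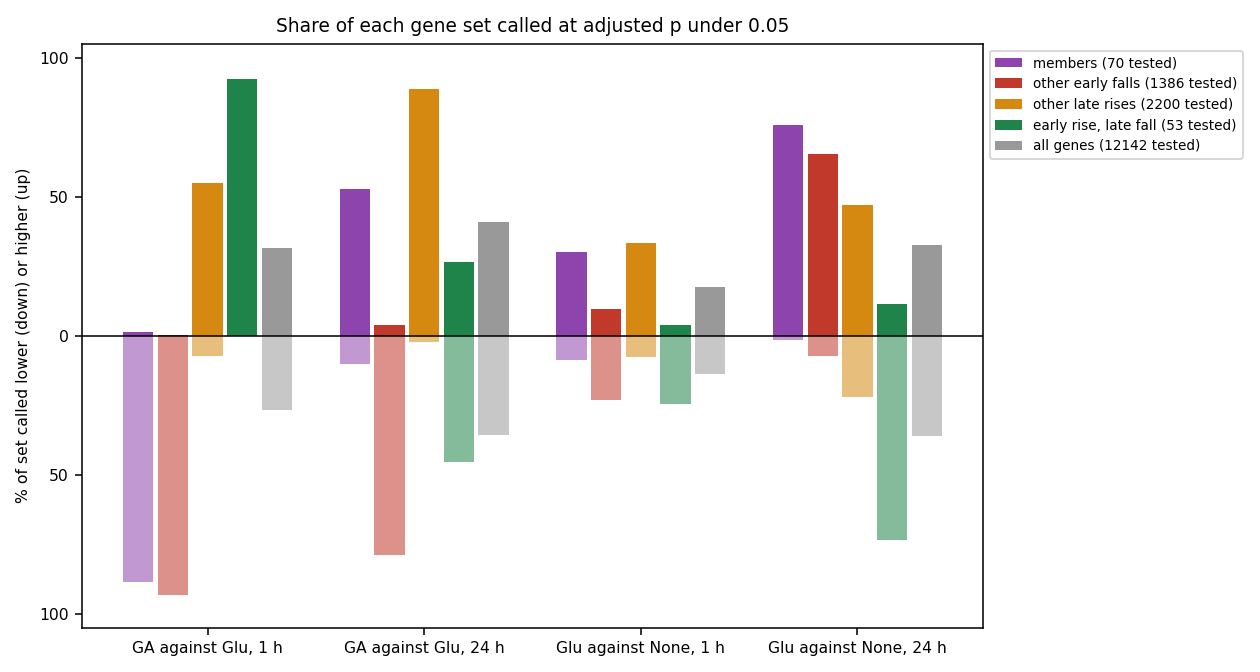
Percent of each gene set that rose (bars up) or fell (pale bars down) in GA against Glu and in Glu against None at 1 h and 24 h, at an edgeR adjusted p under 0.05. The sets are the 70 members, 1386 other early falls, 2200 other late rises, 53 genes of the mirror pattern and all 12142 genes tested. The members fall with the other early falls in GA against Glu at 1 h (88.6% and 93.4%) and part from them at 24 h.

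The members' mean CPM over the 38 libraries ran from 1.85 to 1154 with a median of 34.4, against a median of 29.2 over all genes tested. Within groups the levels were not alike. In AZD the median was 7.62 CPM at 1 h and 69.8 CPM at 24 h in the members, against 24.3 and 25.1 CPM over all genes. The members' median SD of log2(CPM + 1) within a group ran from 0.130 to 0.287 over the 10 groups, against 0.151 to 0.250 over all genes. It was highest in S and Glu at 1 h, the groups of the libraries that stood apart. In S at 1 h it was 0.287 in the members and 0.221 over all genes. By the opening letters of their IDs the members fell under 17 of 20 prefixes, with at most 10 under a single prefix (Cz06, 1.23% of its genes), and 0 pairs had adjacent IDs.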

How the data were processed

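RNA-seq of 38 libraries was analysed from the deposited table, whose values are estimated counts per gene, not scaled for depth. Per the labels' protocols, poly(A) libraries were sequenced as read pairs and trimmed with BBDUK, and Salmon and DESeq2 1.46.0 appear in the submitters' processing notes with no role. Not given in the sources used here are the build, annotation and strand setting, and near-identical or overlapping genes can share reads. The table does not pair IDs with names, so the pathway lists drawn up for the analysis matched 0 IDs and no sequence is shown. The 70 members, and all lists, were chosen with earlier results of these data known.

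Estimated counts were rounded to whole numbers and tested with edgeR 4.0.16 in R 4.3.3: filterByExpr (minimum count 10, minimum total 15; 12142 genes), TMM, and a quasi-likelihood fit with a mean for each of the 10 groups over all 38 libraries (28 residual degrees of freedom). P-values were adjusted by Benjamini-Hochberg over all genes tested. Standard errors are approximate, from the fold change and its F statistic. The code was tested on simulated counts. No replicates were merged, since each of the 54 pairs differed beyond sampling noise (chi-square over its degrees of freedom 7.39 to 410). Comparisons with AZD or S are descriptions. Named genes were the 2 members with the lowest L at 1 h, the highest L at 24 h and the highest mean CPM, the 2 largest rises and falls among called members with non-overlapping libraries and a mean CPM of at least 1 in each tested pairwise comparison, and the genes next to each threshold. Genes in some of the counts of 5 or fewer are named too. Alternatives were other scalings, filters, models (DESeq2 1.42.0, replicate block), rules, and each library left out.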

Additional observations from a re-analysis of the deposited data

Results flagged for a closer look

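Levels of the 16 named members were screened in the 128 groups of 4 libraries for a library far from the rest of its group. Chance flags about 1 group in 20, and 18 were flagged. Of these, 10 were S replicate 1 or Glu replicate 4 at 1 h, the libraries that stand apart. S replicate 1 at 1 h was high in Cz01g44090 (111.8 CPM), Cz06g29140 (158.7 CPM), Cz06g24070 (50.51 CPM), Cz10g18080 (14.04 CPM) and Cz14g13210 (19.55 CPM). Glu replicate 4 at 1 h was high in Cz03g33220 (2340 CPM), Cz01g44090 (370.6 CPM), Cz06g29140 (299.4 CPM), Cz05g31250 (63.24 CPM) and Cz10g18080 (12.77 CPM). S replicate 1 at 24 h was high in Cz01g25050 (144.3 CPM) and low in Cz01g44090 (0.2242 CPM). The rest were Glu replicate 1 at 24 h in Cz09g11130 (8563 CPM) and Cz06g29140 (35.24 CPM), None replicate 3 at 1 h in Cz01g44090 (5.056 CPM), None replicate 2 at 1 h in Cz06g22220 (13.53 CPM), None replicate 4 at 24 h in Cz06g24070 (16.82 CPM) and AZD replicate 1 at 24 h in Cz04g05210 (11.61 CPM).

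The difference of GA from Glu was tested for a change between 1 h and 24 h, and passed in 65 members upward and 3 downward (edgeR, adjusted over all genes). All 16 named members were among them. On the log2 scale the change was 7.323 in Cz01g44090, 6.902 in Cz10g18080, 6.397 in Cz01g25050, 4.612 in Cz06g29140 and 4.277 in Cz05g31250. It was 3.937 in Cz06g24070, 3.452 in Cz11g05020, 3.203 in Cz14g13210, 3.144 in Cz08g02110 and 3.087 in Cz10g13200. It was 2.05 in Cz06g22220, 1.825 in Cz03g33220, 1.011 in Cz04g05210 and 0.5959 in Cz13g19050, and -1.845 in Cz09g11130 and -1.782 in Cz09g02260. Without Glu replicate 4 the change was 3.49 in Cz01g44090, 4.51 in Cz10g18080, 2.30 in Cz06g29140 and 1.85 in Cz05g31250, all still past the threshold.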

How the results depend on the processing

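The rule gave 38 genes with a pseudocount of 5 and 17 with a threshold of 1.5 on the log2 scale, both smaller by construction, and 59 to 75 without a single library. GA against Glu at 1 h gave 0 members higher with library totals alone, without the filter, with the GA, Glu and None groups alone and without both libraries that stood apart (chosen after seeing the data), and 0 to 1 without a single library. Glu against None at 1 h gave 11 higher and 32 lower with library totals (5.99% and 48.3% of all genes). It gave 13 and 10 over the 80 members with None in place of S (17.5% and 13.6% of all genes). Without both libraries that stood apart it gave 3 lower (12.6% of all genes). Without a single library it gave 16 to 21 higher and 3 to 10 lower (14.3% to 18.4% and 10.9% to 14.7% of all genes). At 24 h it gave 3 lower with library totals (42.9% of all genes) and 3 with None in the rule (36.0% of all genes). Without a single library it gave 0 to 1 lower at 24 h (30.9% to 35.4% of all genes). The change of GA against Glu was more negative in 1 member with None in the rule (29.7% of all genes). The cause was not tested. Counts without a single library were 55 to 64 lower in GA against Glu at 1 h, 35 to 38 higher and 5 to 8 lower at 24 h, 26 to 34 for both calls, and 51 to 54 higher in Glu against None at 24 h. The remaining counts stayed within 1.5 times, with DESeq2 too. Of 190 values of named members under alternatives, 187 kept their direction and side of the threshold, 3 lost the call and 0 reversed. Replicate numbers do not pair the libraries (same-number correlations of deviations from -0.505 to 0.337). With a replicate block GA against Glu gave 60 lower and 1 higher at 1 h (25.9% and 30.5% of all genes). At 24 h it gave 36 higher and 6 lower (39.8% and 34.8% of all genes). Both calls were met by 30, and the change gave 65 and 3 (34.6% and 28.9% of all genes). Glu against None gave 18 and 5 at 1 h and 53 and 1 at 24 h. Depth limits genes at a few counts, such as Cz01g44090 in None at 24 h.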
